A study of Mus musculus with 24 samples.

Results

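The respiratory chain of isolated mouse brain vessels was followed through the genes of both genomes that encode it. Members were the genes on the mitochondrial chromosome, and the genes whose symbol starts with Nduf plus a subunit letter and number, Sdha to Sdhd, Uqcr, Cyc1, Cox4 to Cox8 or Atp5. These rules found 117 genes, of which 108 had values, out of 13738 genes tested. Of the 108, 15 were encoded by mitochondrial DNA (13 mRNAs and 2 rRNAs) and 93 by the nucleus. Sorted by the start of the symbol, the nuclear members comprised 38 genes of complex I, 4 of complex II, 8 of complex III, 15 of complex IV and 18 of complex V, the ATP synthase. Complex V includes an inhibitor. Ndufa4 and its relative Ndufa4l2 are thus listed with complex I, and Cox7a2l with complex IV. They also comprised 6 pseudogenes (by symbol or by type in the GENCODE annotation) and, by the letter of the rule, 4 assembly factors of complex II (Sdhaf1 to Sdhaf4). The 9 matched genes without values were Cox6a2, Uqcr11 and 7 older symbols of ATP synthase genes.

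The vessels came from APP/PS1 mice (the genotype label reads APP/PS+, and APP is used below), a transgenic line that models amyloid deposition in Alzheimer's disease, and from WT mice. All were 9 to 11 months old, and each sex of each genotype had 6 mice, which makes 4 groups. CD31, the endothelial surface protein used for magnetic bead capture, selects vessel fragments that can carry attached pericytes, smooth muscle and other cells. Neither the strain nor the promoters that drive the transgenes is given in the sources used here. Depth ran from 52.39 to 75.93 M reads per library (median 65.51 M). Of the marker lists, the endothelial one had the highest sum in every library. Its 16 genes with values summed to 17430 to 24740 CPM (reads of a gene scaled to the total of its library). None of the 16 was below 203 CPM in any library. Markers of other cells were also high in some libraries. The 12 microglia markers summed to 2260 CPM (APP male 3) to 9868 CPM (APP male 5). The 7 choroid plexus and ependyma markers summed to 630.7 CPM (APP male 2) to 9727 CPM (APP female 6). Library names came in a short and a long form, whose meaning the labels do not state. WT males all had short names and WT females all had long names, while each APP group had 4 short-named and 2 long-named libraries. In bulk RNA, fewer cells of a type and less RNA per cell cannot be told apart.

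The respiratory chain passes electrons from NADH and succinate through complexes I to IV to oxygen and pumps protons across the inner mitochondrial membrane, and complex V uses the returning protons to make ATP. Mitochondrial DNA encodes core subunits of complexes I, III, IV and V and both rRNAs of the mitochondrial ribosome, and it is transcribed from both strands into long precursors that are then cut into single RNAs. All other subunits, and the whole of complex II, are nuclear genes that are transcribed singly, translated in the cytosol and imported. Brain endothelial cells are known for a dense mitochondrial content beside high glycolysis.

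The mitochondrial genes lie so close together that some share bases, and these are shown because a read there can belong to either gene. ATP8 and ATP6, both subunits of ATP synthase, share 43 bases, which is 21.1% of ATP8 and 6.31% of ATP6. ND4L and ND4, subunits of complex I, share 7 bases. ND5 and ND6, also of complex I, share 14 bases but lie on opposite strands. In the sequences (GRCm38, plus strand, from the GENCODE transcripts), capitals mark the start codon of the second gene and the stop codon of the first, or for ND5 and ND6 the stop codon of ND5 alone.
ATP8 and ATP6, chrM:7927-7969: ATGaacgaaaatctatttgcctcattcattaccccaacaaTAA
ND4L and ND4, chrM:10167-10173: ATGcTAA
ND5 and ND6, chrM:13552-13565: ttaatctcgagTAA
The sources used here state neither how reads in shared bases were counted nor the strand setting. Nuclear copies of mitochondrial DNA add a further limit. Of the 50-base words of COX2, 100% also occurred in another annotated gene, as did 99.9% of COX3, 99.5% of ATP6, 98.8% of ND4L, 98.0% of ND3, 62.2% of ND4 and 51.1% of COX1. ATP8, CYTB, ND1, ND6 and mt-Rnr1 shared 0% of theirs. Of the 15 other genes that share such words with the mitochondrial members, 0 had values in the table.

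Mitochondrial mRNAs stood far above their nuclear partners in reads per length. Their mean level had a median of 1834 CPM per kb of exon over 13 genes. The 86 placed nuclear members other than pseudogenes had 22.9 CPM per kb, a ratio of 80.2. Exon length was the union of all annotated exons of a gene, so exons that these cells may not use lower its level. The part of this in the ratio was not tested. COX1, the catalytic core of cytochrome c oxidase (chrM:5328-6872), had the highest level at 6384 CPM per kb, and ND5 (chrM:11742-13565), a proton-pumping subunit of complex I, had the lowest at 594 CPM per kb among mitochondrial mRNAs. The rRNAs mt-Rnr1 and mt-Rnr2 stood at 688 and 602 CPM per kb, but the kit selects mRNA, so these are not their levels in the cell. Among nuclear members, Cox6a1 (complex IV) was highest at 167.5 CPM per kb and Sdhaf3 (complex II assembly) lowest at 0.407 CPM per kb. Within complex I the range ran from Ndufb2 at 2.85 to Ndufa2 at 76.0 CPM per kb. The rank depends on that length: Ndufb2 had 16.04 CPM over 5628 bases, while Ndufa12 had 4.72 CPM over 1569 bases. Complex III was the most even of the nuclear groups, from Uqcrq at 21.7 to Uqcrh at 79.7 CPM per kb. Complex V spanned Atp5mg at 0.938 to Atp5f1b, the catalytic beta subunit, at 116.6 CPM per kb. The 17 nuclear members with at least 10% of their 50-base words in another gene had a median of 14.0 CPM per kb, against 23.1 in the 74 others; the part of shared sequence in these levels was not tested.

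**Figure D1:**
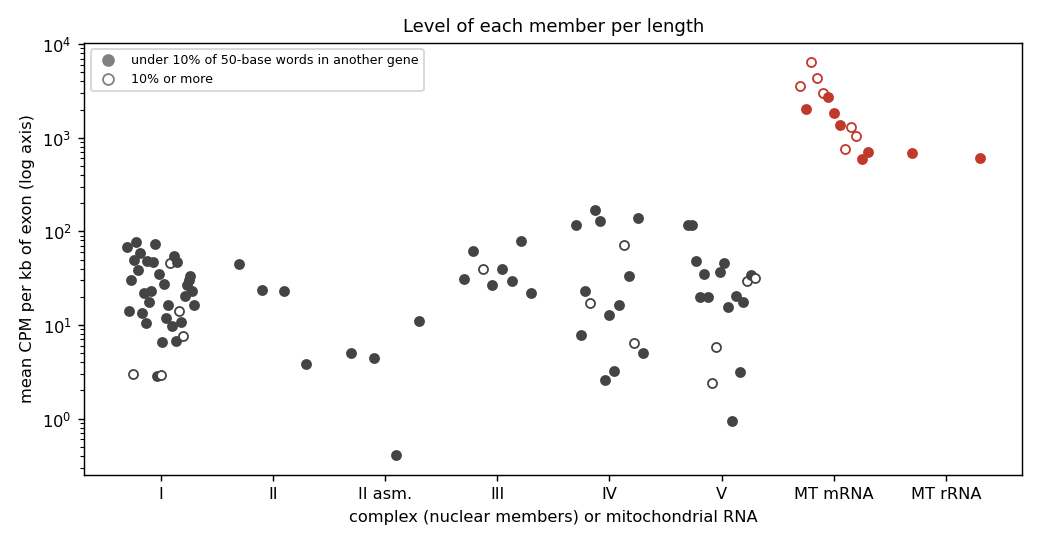
Mean CPM per kb of exon (log axis) over 24 libraries for each member placed in the annotation, pseudogenes left out, by complex; II asm. stands for the complex II assembly factors, red for mitochondrially encoded (MT) and black for nuclear members. Open points share 10% or more of their 50-base words with another gene; the mitochondrial mRNAs lie between 594 and 6384 CPM per kb and every nuclear member lies at or below 167.5.

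The share of all reads that came from the mitochondrial members was 2.94% ± 0.928 in WT males, 2.57% ± 0.781 in APP males, 2.59% ± 0.436 in WT females and 3.79% ± 0.656 in APP females (SD, n = 6 each). It ran from 1.35% in APP male 1 to 4.51% in an APP female. The lowest APP female, at 2.97%, lay below the highest WT female, at 3.20%, so the female groups overlapped in 1 APP library. APP males 1 and 4 were the lowest of their group, and the other 4 APP males lay within the WT male range of 2.19% to 4.35%. The nuclear members together took 0.457% ± 0.0396 of reads in WT males, 0.462% ± 0.0278 in APP males, 0.495% ± 0.0282 in WT females and 0.512% ± 0.0166 in APP females. The log2 ratio of mitochondrial to nuclear reads was 2.63 ± 0.39 in WT males, 2.41 ± 0.46 in APP males, 2.37 ± 0.20 in WT females and 2.87 ± 0.24 in APP females, a description to which no test was applied.

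**Figure D2:**
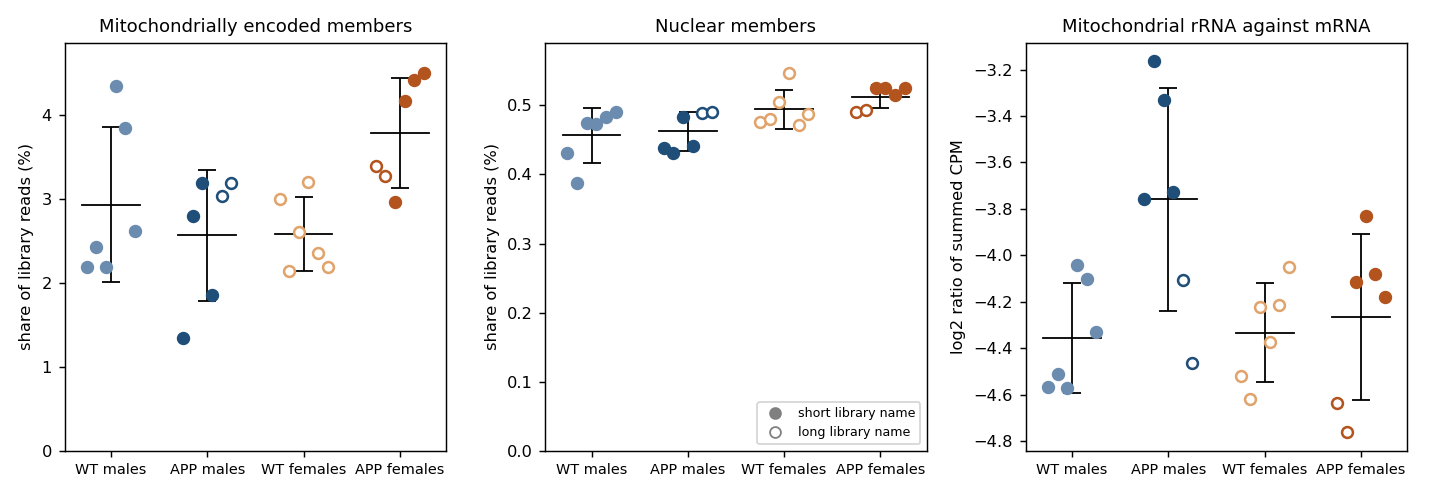
Per library, the share of reads from mitochondrially encoded members (left, %), from nuclear members (middle, %) and the log2 ratio of mitochondrial rRNA to mRNA reads (right), with group mean and SD (n = 6). Filled points are short-named and open points long-named libraries; APP females reach 4.51% of mitochondrial reads and the 4 short-named APP males have the highest rRNA ratios.

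In females, all 15 mitochondrial RNAs had higher means in APP than in WT, by 0.39 to 0.72 on the log2(CPM + 1) scale, with a median of 0.60. None passed in limma (Benjamini-Hochberg adjusted p under 0.05 over all genes tested, as for every call below), where 5.36% of all genes passed (2.42% higher and 2.95% lower). At an unadjusted p under 0.05 there were 13 of 15, where 21.9% of all genes were, and edgeR called 2 and DESeq2 called 6. Mitochondrial mRNAs varied together between mice (median Pearson r of 0.951 between pairs after removing group means). The 15 are therefore not separate results. COX1 ranged over 7388, 8659 and 10090 CPM (lowest, median and highest) in WT females and over 10200, 12320 and 15220 CPM in APP females. These ranges did not touch, and COX1 was the 1 member of 108 for which every APP female was above every WT female, where 1.47% of all genes were. No member had every APP female below every WT female, where 2.33% of all genes did. The COX1 difference was 0.54 (SE 0.20, limma adjusted p = 0.112). ND5 ranged over 695, 879 and 1275 CPM in WT females and 1233, 1471 and 1571 CPM in APP females, so only the ends overlapped, with a difference of 0.63 (SE 0.19, limma adjusted p = 0.0516). CYTB, the core of complex III (chrM:14145-15288), gave 0.48 (SE 0.21, adjusted p = 0.172), and ATP6, the proton channel of ATP synthase, gave 0.60 (SE 0.25, adjusted p = 0.166). The smallest difference was that of COX2 (0.39) and the largest that of mt-Rnr1 (0.72).

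Markers of other cells moved with the female comparison. Of 10 measured oligodendrocyte markers, 6 were called higher and 1 lower in APP females, with a median difference of 1.42, and of 10 neuron markers 4 were called higher and 0 lower, with a median of 0.98. Summed neuron markers were at 173.2 to 451.6 CPM in WT females, 237.2 to 434.4 CPM in the long-named APP females and 879 to 1596 CPM in the short-named APP females. None of either list was at 0 in any library. With the 2 long-named APP females alone against the WT females, 14 of 15 mitochondrial RNAs had higher means, with a median difference of 0.40. With the 4 short-named ones alone it was 15 of 15, with a median of 0.70. The part of these markers in the mitochondrial differences of females was not tested.

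In males the mitochondrial mRNAs leaned the other way. All 13 had lower means in APP, by 0.16 to 0.38, and both rRNAs had higher means, mt-Rnr1 by 0.20 and mt-Rnr2 by 0.45. None of the 15 passed in limma, edgeR or DESeq2, none had an unadjusted p under 0.05, where 28.0% of all genes did, and 14.3% of all genes passed in limma. No member had male groups that did not overlap, where 1.51% of all genes had every APP male above every WT male and 1.96% below. ND5 ranged over 872, 918 and 1615 CPM in WT males and 507, 919 and 1138 CPM in APP males, so the medians were close and the groups overlapped widely. Its difference was -0.35 (SE 0.19, limma adjusted p = 0.233). The direction differed by library name: against the WT males, the 4 short-named APP males had 2 of 15 means higher, with a median of -0.47, and the 2 long-named ones had 14 of 15 higher, with a median of 0.13. Without APP males 1 and 4, 12 of 15 mitochondrial RNAs had higher means in APP males, with a median difference of 0.05. These 2 were picked after seeing that they had the lowest mitochondrial shares of their group. Leaving them out raises the APP means by construction, so the turn in direction is a description only. In the comparison of all males, 3 of 10 oligodendrocyte and 2 of 10 neuron markers were called lower and none higher, with medians of -0.69 and -0.90. Their part in the mitochondrial differences was not tested. With the sexes averaged, all 15 had higher means in APP, with a median of 0.16, and none passed in limma, edgeR or DESeq2, against 12.1% of all genes in limma; 2 had an unadjusted p under 0.05, where 25.8% of all genes did.

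**Figure D3:**
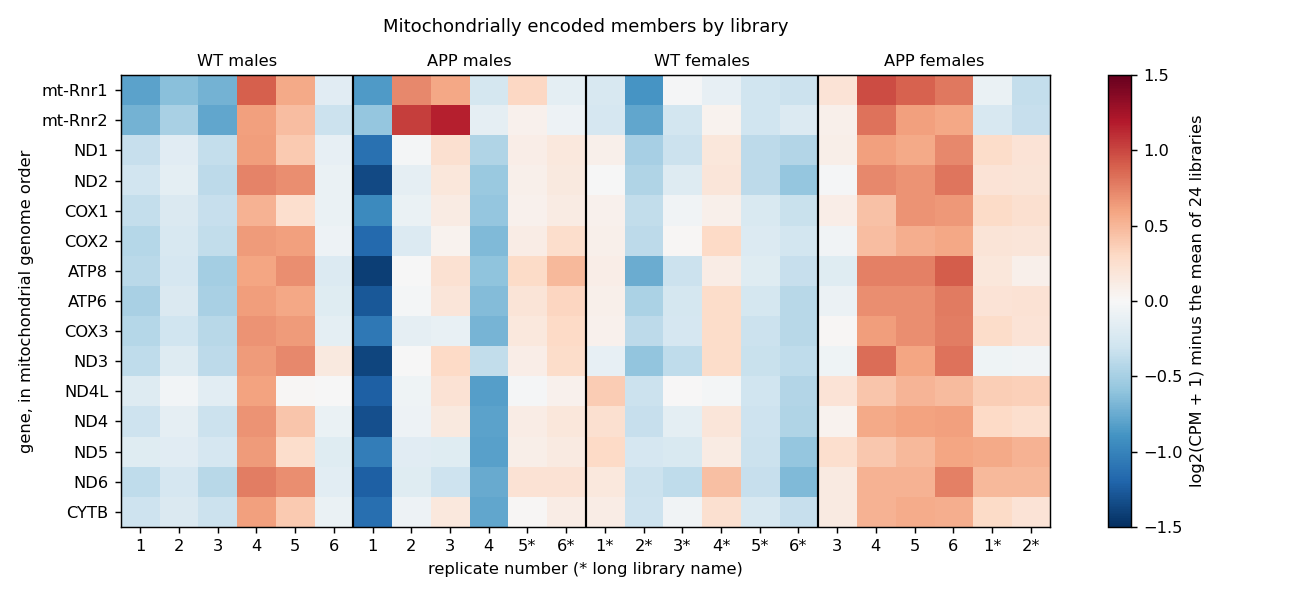
Log2(CPM + 1) of the 15 mitochondrially encoded genes, in genome order, minus each gene's mean over 24 libraries, with 1 column per library and the 4 groups side by side; an asterisk marks a long library name. Whole columns shift together: APP males 1 and 4 lie below the mean for all 15 genes, and APP females 4 to 6 lie above it for all 15.

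The test of a genotype effect that differs between the sexes passed for a single member. ND5 had an interaction (female minus male genotype difference) of 0.98 (SE 0.27, limma adjusted p = 0.0313). It was the 1 mitochondrial member called of 15, and none of the 93 nuclear members was called by limma, edgeR or DESeq2, where 7.05% of all genes were called by limma (4.94% higher and 2.12% lower); 12 of 15 mitochondrial and 6 of 93 nuclear members had an unadjusted p under 0.05, where 23.5% of all genes did. The other 12 mRNAs had interactions of 0.68 to 1.05 and limma adjusted p of 0.0621 to 0.229, so ND5 was not shown to differ from them. Since the mitochondrial members varied together, the 12 of 15 are not separate results. The rRNAs had 0.52 (mt-Rnr1) and 0.09 (mt-Rnr2). DESeq2 called 9 mitochondrial members, and edgeR called 1. The ND5 call was lost without APP male 4 (adjusted p = 0.0561), APP female 6 (0.0559), WT male 4 (0.0558), WT female 5 (0.054) or WT female 6 (0.0616), and the adjusted p was 0.0777 without APP males 1 and 4 together. APP males 1 and 4 were picked after seeing that they had the lowest mitochondrial shares of their group. Without the 4 short-named APP males the interaction was 0.54 (limma adjusted p = 0.191). The interaction also contains the sex difference of the WT mice. WT males all had short names and WT females all had long ones, so sex and naming cannot be told apart in that part.

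The 2 rRNAs did not follow the mRNAs in every library. The log2 ratio of rRNA to mRNA reads lay between -3.76 and -3.16 in the 4 short-named APP males, and between -4.47 and -4.10 in the 2 long-named ones. In APP females it lay between -4.18 and -3.83 in short-named libraries and between -4.76 and -4.64 in long-named ones. WT males (short names) ranged from -4.57 to -4.04 and WT females (long names) from -4.62 to -4.05. The ratio was thus higher in short-named than in long-named libraries within both APP groups, without overlap. The part of the naming in the genotype differences of mt-Rnr1 and mt-Rnr2 was not tested.

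Nuclear members differed little between genotypes. With the sexes averaged, 67 of 93 had higher means in APP, yet the median difference was 0.03, and 97.8% of the 93 lay within 0.25 of 0, against 83.6% of all genes. One was called higher and none lower, against 4.78% and 7.32% of all genes. In males 49 of 93 had higher means, with a median difference of 0.01, and 1 was called higher and 2 lower, against 5.12% and 9.19% of all genes. In females 64 of 93 had higher means, with a median of 0.05, and none was called by limma, edgeR or DESeq2, where limma called 5.36% of all genes; 7 had an unadjusted p under 0.05, where 21.9% of all genes did. The median of all genes was -0.01 with the sexes averaged, -0.02 in males and 0.01 in females. Of 13738 genes, 6584 had higher means in APP with the sexes averaged, 6362 in males and 7063 in females. The member counts depended on scaling. With another scaling of the libraries (TMM), 72, 62 and 64 of the 93 nuclear members had higher means in the same order.

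**Figure D4:**
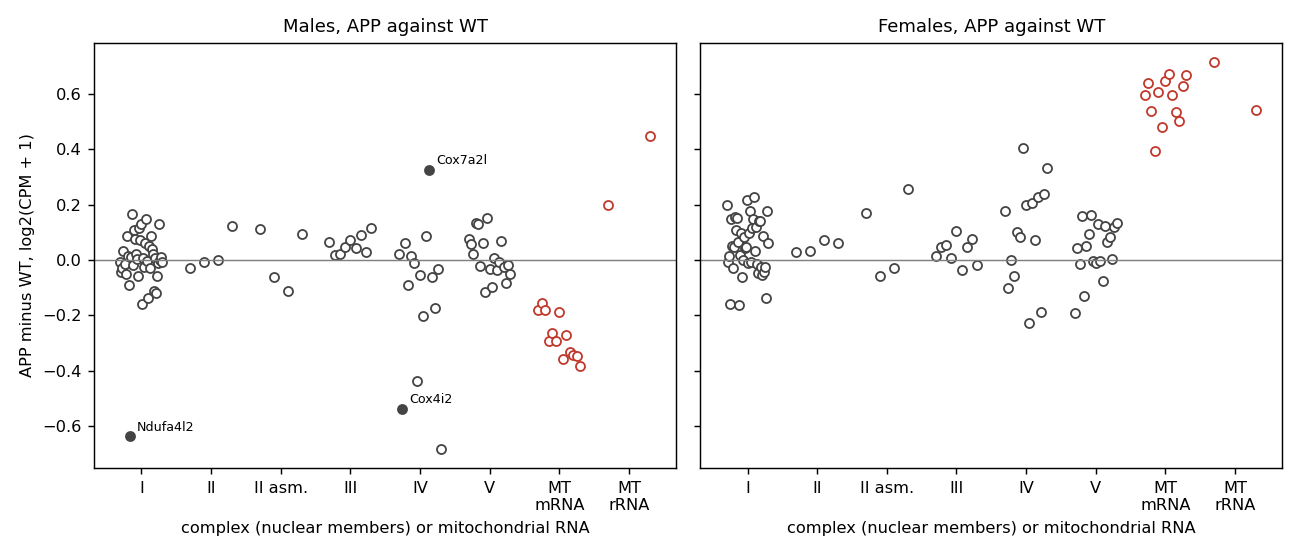
APP minus WT difference on the log2(CPM + 1) scale for every member with values, by complex, in males (left) and females (right); red points are mitochondrially encoded (MT), and filled points have an adjusted p under 0.05. Mitochondrial mRNAs sit at -0.38 to -0.16 in males and at 0.39 to 0.67 in females, while most nuclear members stay near 0.

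By complex, the median genotype differences of nuclear members were small in both sexes, with the widest range in complex IV. In complex I, whose 42 genes here include 4 pseudogenes, the median was 0.01 in males and 0.05 in females. Ndufb8, an accessory subunit of the membrane arm, gave 0.15 in males (SE 0.07, adjusted p = 0.189) and Ndufv1, which carries the NADH-binding site, gave -0.14 in females (SE 0.06, adjusted p = 0.148). In complex II, Sdha, the flavoprotein that oxidises succinate, gave -0.03 in males and 0.03 in females, and Sdhb, Sdhc and Sdhd stayed between -0.01 and 0.12. In complex III all 9 genes had higher means in APP males, by 0.02 to 0.12, and none was called. Uqcrc2, a core protein of that complex, gave 0.09 with the sexes averaged (SE 0.04, adjusted p = 0.161). In complex IV the median was -0.05 in males, where values ran from -0.68 to 0.33 and 73.3% lay within 0.25 of 0. In females it was 0.10, with values from -0.23 to 0.40 and 86.7% within 0.25. Of all genes, 71.8% lay that close in males and 77.1% in females. The lowest value in males was that of Cox8b (-0.68, SE 0.28, limma adjusted p = 0.104). Its interaction was 1.02 (SE 0.39, limma adjusted p = 0.113). In complex V, Atp5f1c, the gamma subunit that forms the rotor shaft, gave 0.13 in males and 0.16 in females, and 0.15 with the sexes averaged (SE 0.05, adjusted p = 0.0685). Among the assembly factors of complex II, none was called.

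The members that passed between genotypes in limma were Cox7a2l, Cox4i2 and Ndufa4l2. The count depended on the method: with the sexes averaged, edgeR called 3 nuclear members higher and DESeq2 called 5, where limma called 1. Cox7a2l (chr17:83501918-83517330) encodes a relative of subunit 7a that joins complexes III and IV into supercomplexes. It ranged over 74.6, 89.0 and 107.6 CPM in WT males and 106.4, 112.5 and 124.0 CPM in APP males. Only the highest WT male reached the APP range. Cox7a2l rose in APP males by 0.33 (SE 0.08, limma adjusted p = 0.00967) and with the sexes averaged by 0.20 (SE 0.06, adjusted p = 0.0248). The averaged call was lost without the short-named APP libraries (adjusted p = 0.281), without the 4 short-named APP males (0.157) and without APP males 1 and 4 (0.0508), with differences of 0.18 to 0.20. In females it was at 88.0, 107.6 and 123.2 CPM in WT and 95.6, 114.5 and 115.5 CPM in APP, a difference of 0.07 (SE 0.08, adjusted p = 0.643). The interaction was -0.25 (SE 0.11, adjusted p = 0.179), so the sexes were not shown to differ. Of its 50-base words, 13.8% also occur in another gene. Against the WT males, the 2 long-named APP males alone gave 0.30 (adjusted p = 0.141) and the 4 short-named ones alone gave 0.34 (adjusted p = 0.0172).

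Cox4i2 and Ndufa4l2 fell in APP males. Cox4i2 (chr2:152754173-152765037) is the oxygen-sensitive isoform of subunit 4, and Ndufa4l2 (chr10:127514967-127517154), listed by symbol with complex I, is the hypoxia-inducible relative of Ndufa4; both are known as genes enriched in brain pericytes. Cox4i2 was at 5.58, 7.17 and 8.82 CPM in WT males and 2.99, 4.09 and 8.30 CPM in APP males, a difference of -0.54 (SE 0.18, limma adjusted p = 0.0439). Ndufa4l2 was at 13.0, 17.8 and 21.1 CPM in WT males and 6.81, 8.95 and 19.6 CPM in APP males, a difference of -0.64 (SE 0.20, adjusted p = 0.0324). For both genes the 4 short-named APP males lay below every WT male, and the 2 long-named ones lay within the WT range. The Cox4i2 call was lost without any 1 of APP males 1 to 4 or WT males 3, 4 and 6 (adjusted p from 0.0681 to 0.115), and the Ndufa4l2 call without any 1 of APP males 1 to 4 or WT males 1, 3, 4 and 6 (0.0503 to 0.0913). Without the 4 short-named APP males the differences were 0.05 for Cox4i2 (adjusted p = 0.887) and 0.04 for Ndufa4l2 (adjusted p = 0.916). In females the differences were -0.10 (adjusted p = 0.783) and 0.11 (adjusted p = 0.791).

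Pericyte markers moved with both genes. Apart from these 2 members, all 11 pericyte markers had lower means in APP males, with a median of -0.67. Of the 11, 4 were called, where 9.19% of all genes were called lower. Pdgfrb, the receptor that defines pericytes, gave -0.76 (SE 0.22, limma adjusted p = 0.0233). Summed, they reached 273.5 to 400.7 CPM in short-named APP males, 606.4 to 902.1 CPM in the long-named ones and 555.9 to 886.8 CPM in WT males, and none was at 0 in any library. The same short-named APP males were also low in other markers. Summed astrocyte markers were at 345.4 to 534.9 CPM in them, 567.6 to 948.8 CPM in the long-named ones and 1029 to 1813 CPM in WT males. Summed neuron markers were at 153.7 to 197.5, 186.5 to 405.9 and 206.8 to 726.9 CPM in the same order. Microglia markers were not low throughout, at 2260 to 9827 CPM against 2619 to 5598 CPM in WT males. The part of any of these markers in the fall of Cox4i2 and Ndufa4l2 was not tested. Over all 24 libraries, the gene closest to Cox4i2 was Ndufa4l2 (Pearson r = 0.859, or 0.821 after removing group means), followed by Adgrb1, Tagln3 and Pcsk6. The gene closest to Ndufa4l2 was Pdgfrb (r = 0.907, or 0.854 after removing group means), followed by Tbx2, Il34, Septin5 and Adgrb1. These correlations over 24 libraries are descriptions, since all genes of a library share its mixture of cells and its depth.

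**Figure D5:**
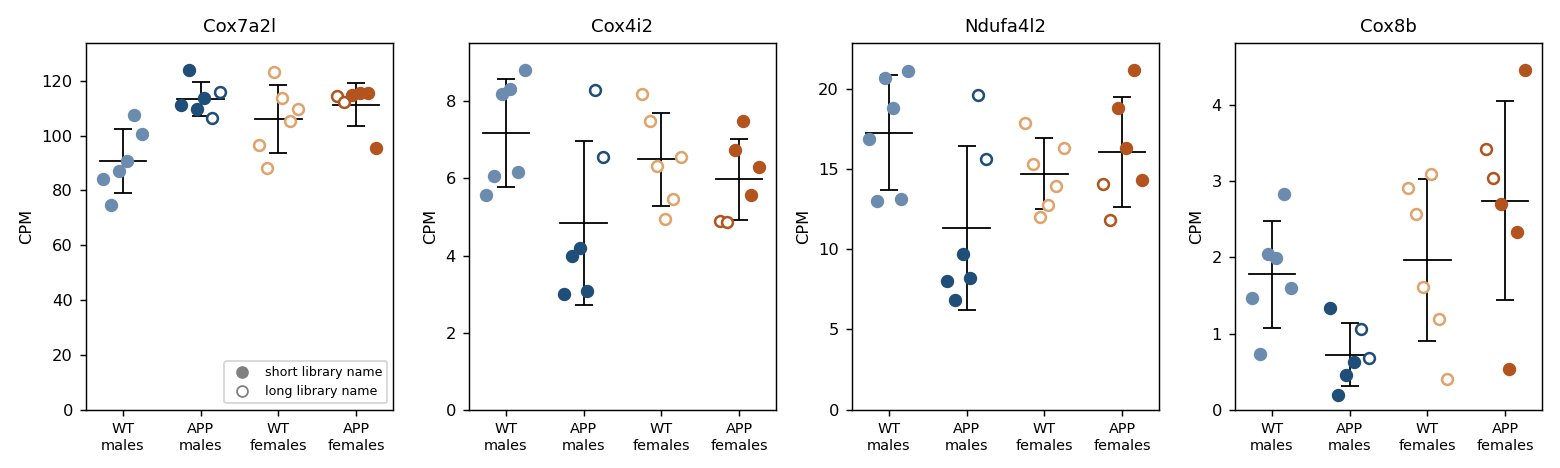
CPM of Cox7a2l, Cox4i2, Ndufa4l2 and Cox8b in each library by group, with mean and SD (n = 6); filled points are short-named and open points long-named libraries. For Cox4i2 and Ndufa4l2 the 4 short-named APP males lie below all WT males, while the 2 long-named APP males lie among them.

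The partner isoforms of these genes gave small genotype differences. Cox4i1, the widespread isoform of subunit 4, was at 167.5 ± 24.2 CPM in WT males and 168.7 ± 9.45 in APP males, and at 180.9 ± 13.2 in WT females and 204.5 ± 14.4 in APP females (SD, n = 6). Ndufa4, now known as a subunit of complex IV, gave -0.09 in males and 0.16 in females (adjusted p = 0.599 and 0.374). Cox7a2, the widespread isoform of subunit 7a, gave 0.09 and 0.21, and Cox7a1, its muscle isoform, gave -0.20 and -0.23, none of them called. Cox7a1 was near the lower end of the measured range, at 0.839 to 2.88 CPM over the WT libraries and 1.04 to 1.99 CPM over the APP libraries; the genes closest to it were BC034090 (r = 0.82), Aopep, Thap3, Idh3b and Top3b. Cox6b2, a testis isoform of subunit 6b, gave -0.44 in males and 0.40 in females (adjusted p = 0.263 and 0.36), while its partner Cox6b1 gave -0.01 and 0.08. Atp5mc1, Atp5mc2 and Atp5mc3, which encode the same mature c subunit of ATP synthase, gave -0.12, 0.15 and -0.03 in males and 0.16, 0.00 and -0.01 in females, none of them called.

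Median differences of nuclear members were larger between the sexes than between genotypes. Among APP mice, 89 of 93 nuclear members and all 15 mitochondrial ones had higher means in females, with medians of 0.17 and 0.63, against 0.05 for all genes. Of all genes, 8417 of 13738 had higher means in females. With another scaling of the libraries (TMM), 84 of 93 nuclear and 14 of 15 mitochondrial members did. In the main fit, 4 nuclear and 3 mitochondrial members were called higher and none lower, against 4.62% and 1.43% of all genes (6.05% in either direction). At an unadjusted p under 0.05 there were 41 nuclear and 11 mitochondrial members, where 23.0% of all genes were. Since the mitochondrial members varied together, these 11 are not separate results. The mitochondrial members called were ND5 (0.80, SE 0.19, limma adjusted p = 0.0173), ND4L (0.70, SE 0.19, adjusted p = 0.0373) and ND6 (0.82, SE 0.24, adjusted p = 0.0462). The nuclear ones were Cox4i1 (0.28, adjusted p = 0.0393), Cox8a (0.39, adjusted p = 0.0443), Cox8b (1.06, SE 0.28, adjusted p = 0.0275) and Ndufb4b (0.31, adjusted p = 0.0394). Cox8b, the muscle isoform of subunit 8 (chr7:140898945-140900446), was at 0.188, 0.655 and 1.34 CPM in APP males and 0.531, 2.87 and 4.46 CPM in APP females; 1 of the 6 APP females lay within the male range. In complex I, 42 of 42 means were higher in females, with a median of 0.19. Leaving out 1 library at a time gave 0 to 17 nuclear and 0 to 7 mitochondrial calls, and of these 7 genes ND5 was lost in the fewest cases, without APP male 4 alone (adjusted p = 0.0561). Without the 4 short-named APP males none of the 7 was called (adjusted p from 0.218 to 0.657). The differences were then 0.91 for Cox8b, 0.21 to 0.22 for Cox4i1, Cox8a and Ndufb4b, 0.36 for ND5, 0.37 for ND4L and 0.27 for ND6. The 2 long-named APP females against the 2 long-named APP males gave 9 of 15 mitochondrial and 48 of 93 nuclear means higher in females, with medians of 0.08 and 0.00. Neuron and oligodendrocyte markers were also higher in APP females than APP males, 7 and 9 of 10 each being called. Their part in these differences was not tested.

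Among WT mice the sex difference took another form. All 15 mitochondrial means were lower in females, by 0.09 to 0.35, and none passed in limma, edgeR or DESeq2 or had an unadjusted p under 0.05, where 30.3% of all genes did. Of the nuclear means, 83 of 93 were higher in females, with a median of 0.12, where 7365 of 13738 genes were higher. Of the 93, 9 were called higher and none lower, against 8.62% and 5.25% of all genes (13.9% in either direction). Higher calls were thus about as frequent as among all genes. The 9 were Uqcrq (0.34, SE 0.09, adjusted p = 0.0163), a small subunit of complex III, Atp5f1d, the delta subunit of ATP synthase, and 7 of complex I: Ndufa2, Ndufa7, Ndufb3, Ndufb8, Ndufs3, Ndufs8 and Ndufv1. Ndufs8, an iron-sulfur subunit, was at 26.7, 34.3 and 40.4 CPM in WT males and 38.2, 42.05 and 47.45 CPM in WT females, a difference of 0.30 (SE 0.08, adjusted p = 0.0163). Sex and library naming coincide in WT mice and cannot be told apart there. With the naming as a covariate, which only the APP libraries inform, none of the 9 was called (adjusted p from 0.0955 to 0.615). The differences were then 0.39 for Uqcrq, 0.36 for Atp5f1d, 0.21 to 0.26 for Ndufa2, Ndufb3, Ndufb8, Ndufs8 and Ndufv1, 0.13 for Ndufa7 and 0.12 for Ndufs3.

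Within APP, short-named against long-named libraries (sexes averaged) gave 1 called member of 108, Cox7c, against 9.75% of all genes (3.09% higher and 6.65% lower); 5 members had an unadjusted p under 0.05, where 24.7% of all genes did. Cox7c, a small subunit of complex IV, ranged from 5.01 to 6.98 CPM over 8 short-named and from 7.08 to 9.92 CPM over 4 long-named APP libraries, a difference of -0.46 (SE 0.14, limma adjusted p = 0.0392). It was not called by edgeR or DESeq2, nor in limma without any 1 of APP males 1, 2, 3, 5 and 6 or APP females 1, 2, 5 and 6 (adjusted p from 0.0544 to 0.168). The mitochondrial mRNAs gave a median of -0.20 and the rRNAs 0.45 and 0.60, none of them called. Of the 15 mitochondrial members 3 had higher means in short-named libraries, and 11 did without APP males 1 and 4. Those libraries were left out after seeing that they were the lowest APP males in mitochondrial reads.

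Members encoded by mitochondrial DNA varied together more tightly than nuclear ones. After removing group means, pairs of mitochondrial mRNAs had a median Pearson r of 0.951 over 24 libraries (78 pairs, 0.747 to 0.99), and pairs of rRNA and mRNA 0.775. Pairs of nuclear members had a median of 0.43 (4278 pairs, -0.638 to 0.947), and mitochondrial mRNAs with nuclear members 0.392. Without APP males 1 and 4 these medians were 0.934, 0.739, 0.434 and 0.357. With group means kept, the gene closest to ND5 was ND6 (r = 0.961, or 0.945 after removing group means), its neighbour on the opposite strand, followed by ND4, ND4L, CYTB and COX1. The genes closest to Cox7a2l were Rps3 (r = 0.893, or 0.818), Eef1b2, Rpl32 and Gm5148, which apart from the gene model Gm5148 encode ribosomal proteins and an elongation factor. The genes closest to Cox8b were Frmpd4 (r = 0.937, or 0.898), Rdh5, Gm11992, Col8a2 and Epn3. The spread between mice also separated the genomes: the within-group SD on the log2 scale had a median of 0.42 for mitochondrial mRNAs, 0.55 for the rRNAs, 0.16 for nuclear members and 0.19 for all genes. A genotype difference of a given size was therefore less detectable for a mitochondrial member than for a nuclear one.

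The promoters of nuclear members were searched for motifs of regulators known for respiratory genes, and the matches are shown because NRF1 and YY1 are textbook activators of nuclear respiratory genes. RefSeq promoters (GRCm38.p6, from 250 bases before to 50 after the start) were found for 72 of 87 nuclear members other than pseudogenes. The NRF1 motif, a palindrome whose letters are the capitals of the first 5 windows, occurred in 5 of 72 (6.94%), against 2.06% of the promoters of genes tested and 0.977% of all promoters in that table. The YY1 motif, the capitals of the last 2 windows, searched on either strand, occurred in 4 of 72 (5.56%), against 2.05% and 0.899%. The ETS motif CCGGAAGT, also on either strand, occurred in 4 of 72 (5.56%), against 8.08% and 4.0%. The windows read along the gene's strand.
Atp5mc2, chr15:102671070-102671099, minus strand: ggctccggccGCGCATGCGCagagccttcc
Atp5me, chr5:108434430-108434459, minus strand: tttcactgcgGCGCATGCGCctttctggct
Cox6a1, chr5:115349101-115349130, minus strand: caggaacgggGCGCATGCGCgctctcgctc
Ndufa11, chr17:56717692-56717721, plus strand: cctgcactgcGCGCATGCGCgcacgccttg
Uqcrc1, chr9:108936668-108936697, plus strand: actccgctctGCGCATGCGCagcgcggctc
Ndufa9, chr6:126849096-126849125, minus strand: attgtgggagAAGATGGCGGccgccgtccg
Ndufs7, chr10:80249463-80249492, plus strand: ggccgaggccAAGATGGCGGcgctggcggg
The NRF1 matches lay from 162 bases before the start (Cox6a1) to 31 after it (Uqcrc1), and the YY1 matches at 25 (Ndufs7) and 30 (Ndufa9) bases after it. YY1 matches in Ndufs4 and Ndufs6 lay too near the end of the promoter for a window. None of these 9 genes was called between genotypes in limma in males, in females or with the sexes averaged. A match is a run of letters, not a shown binding site.

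Genes that serve the chain without belonging to it were taken from lists, read against 14.3% of all genes called in males, 5.36% in females and 7.05% for the interaction. Of 17 assembly factors of complex I, none was called in either sex, and in complex IV assembly 1 of 25, Coa5, rose in females by 0.36 (SE 0.09, adjusted p = 0.0254). Fmc1, an assembly factor of ATP synthase, fell in males by 0.37 (SE 0.11, adjusted p = 0.0335). Coq9, needed for ubiquinone synthesis, fell in males by 0.19 (SE 0.06, adjusted p = 0.0354). Of 18 genes for upkeep and transcription of mitochondrial DNA, 1 was called in males: Polg, its replicative polymerase, fell by 0.16 (SE 0.05, adjusted p = 0.0271). In females none of the 18 was called. Mterf2, a mitochondrial transcription regulator, gave an interaction of 0.54 (SE 0.14, adjusted p = 0.0247). Of 20 measured genes for processing and decay of mitochondrial RNA, 0 were called in males and Ptcd2 rose in females by 0.34 (SE 0.09, limma adjusted p = 0.0309). Fmc1, Coq9 and Mterf2 are single genes named for a small p. The count called over their lists in those comparisons is not given, so they are no result about these lists.

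Lists of fuel and stress genes around the chain are given against the same shares, 14.3% of all genes called in males and 5.36% in females. In the tricarboxylic acid cycle, Suclg2 rose in males by 0.31 (SE 0.08, adjusted p = 0.0126) and was the 1 of 19 called in males; 0 of 19 were called in females. Among 18 glycolysis genes, Pfkfb3 rose in males by 0.69, Aldoc fell by 2.10 and Pfkp fell by 0.28 (adjusted p = 0.0184, 0.00632 and 0.0199). Slc2a1, the glucose transporter of the blood-brain barrier, fell in females by 0.67 (SE 0.15, adjusted p = 0.00981). Pfkfb3, Aldoc, Pfkp and Slc2a1 are single genes named for a small p. The count called over the glycolysis genes is not given, so they are no result about glycolysis. Aldoc is also a known astrocyte gene, and 10 of 13 astrocyte markers were called lower in APP males, with a median of -1.43. Of 17 hypoxia-inducible genes, 5 rose and 3 fell in males, and 2 rose and 3 fell in females; Egln3, an oxygen sensor, rose by 1.98 in males and 1.80 in females. Atf4, the central factor of the mitochondrial stress response, rose in males by 0.31 (SE 0.06, adjusted p = 0.00258), and its interaction was -0.46 (SE 0.09, adjusted p = 0.00949). Atf5 fell in males by 0.29 (limma adjusted p = 0.0297), and Psat1, a serine synthesis gene under Atf4, rose in females by 0.79 (SE 0.22, adjusted p = 0.0391). Atf4, Atf5 and Psat1 are single genes named for a small p. The count called over the stress genes is not given, so they are no result about a stress response.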

How the data were processed

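Messenger RNA libraries of 24 mice (6 in each of 4 groups; p-values refer to variation between mice) were made from 200 ng of total RNA, per the labels' protocols. The deposited values are CPM, a unit read from the column names and the values; mm10 is the genome build named in the submitters' processing notes. Aligner, annotation, counting and strand settings: not given in the sources used here. In every column 100% of values were whole multiples of 1 read (0.0132 to 0.0191 CPM) within 0.01 reads, which gave the totals. Of 15346 rows, 1598 had no values and 10 were repeated rows.

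Log2(CPM + 1) was fitted with limma 3.58.1 (trend, R 4.3.3) on 4 group means over 24 libraries, adjusted over 13738 genes; naming was compared with APP groups split by name. The pseudocount understates changes of low genes. edgeR 4.0.16 and DESeq2 1.42.0 were run on recovered reads. The other settings were scaling, pseudocount, a filter on low means, covariates, blocks and left-out libraries. The fit was also run on simulated counts in which genes varied independently, unlike the mitochondrial members. The outcome of that run is not given and no result rests on it. Positions, lengths and 50-base words came from GENCODE (GRCm38), which placed 106 of 108 members; promoters came from RefSeq. Members and lists were chosen with earlier results of these data known. Named genes were all mitochondrial members, up to 4 with the smallest p per complex or list, isoform pairs, and extremes of level; other called members, Pdgfrb, and genes near Cox7a2l, Cox8b and ND5, were added after their values were seen.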

Additional observations from a re-analysis of the deposited data

Results flagged for a closer look

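In groups of 6, a lowest or highest library was marked when its gap to the next exceeded the 95% limit of Dixon's test. Of 184 groups examined over 46 measures, 8 were marked, and chance alone marks about 1 group in 20. WT female 4 was marked for 3 nuclear members at once, with Atp5mc3 at 97.7 CPM, Cox7b at 46.5 CPM and Ndufa4 at 99.5 CPM, each the highest of its group, while the next highest libraries had 84.2, 36.6 and 80.7 CPM. WT male 2 was the lowest WT male for Atp5mc1 at 7.16 CPM (next 11.9 CPM) and for Ndufb8 at 36.3 CPM (next 43.8 CPM). APP female 6 had Cox7a2l at 95.6 CPM, where the next lowest APP female had 112.1 CPM. WT male 4 had ND4L at 454.7 CPM, where the next highest WT male had 302.1 CPM. APP female 3 had Ndufs8 at 46.8 CPM, where the next highest APP female had 41.1 CPM.

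The genotype difference of ND5 differed between the sexes by 0.98 on the log2 scale (limma, adjusted p = 0.0313), and it was the 1 member of 108 for which this test passed. In the WT part of this test, sex and library naming coincide and cannot be told apart.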

How the results depend on the processing

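Calls are counts of members with an adjusted p under 0.05, with the reported count first. Without the short-named APP libraries there were 0 calls with the sexes averaged (nuclear, from 1), 0 higher and 0 lower in males (nuclear, from 1 and 2), 0 for the interaction (mitochondrial, from 1), and 0 nuclear and 0 mitochondrial between APP sexes (from 4 and 3). Leaving out the 4 short-named APP males alone, chosen after seeing the data like the next 2 settings, also gave 0 for each of these except the averaged comparison, where the 1 call was another gene, Ndufa9 (0.19, adjusted p = 0.0364), and Cox7a2l was lost. In both settings Cox4i2 and Ndufa4l2 turned in males, to 0.052 and 0.0436. Without both APP males lowest in mitochondrial reads there were 0 nuclear members lower in males, 0 for the interaction, 0 nuclear and 0 mitochondrial between APP sexes, and by library name 0 nuclear lower and 1 mitochondrial higher. Without the long-named APP libraries there were, with the sexes averaged, 2 nuclear higher, 3 nuclear lower and 1 mitochondrial higher, 2 mitochondrial in females, 2 nuclear and 7 mitochondrial for the interaction, and 19 nuclear and 11 mitochondrial between APP sexes. The causes were not tested.

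For mitochondrial members higher in females (0), TMM scaling, DESeq2 size factors, a pseudocount of 5 and a mean of at least 5 CPM each gave 1, edgeR 2, DESeq2 6 and only the groups compared 8. For nuclear members higher with the sexes averaged (1), TMM, DESeq2 size factors and edgeR gave 3 and DESeq2 5. For nuclear members lower in males (2), edgeR and a pseudocount of 5 gave 1 and only the groups compared 0. For the interaction (1), DESeq2 size factors and the name covariate gave 2 and DESeq2 9. Between APP sexes, nuclear calls (4) were 1 with TMM or DESeq2 size factors, 2 with edgeR and 10 when scaled to reads off the mitochondrial chromosome, and mitochondrial calls (3) were 1 with edgeR or only the groups compared and 8 with DESeq2. Between WT sexes (9) the name covariate gave 0 and only the groups compared 4. By library name (1 lower), TMM, DESeq2 size factors, edgeR and DESeq2 gave 0.

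Replicate numbers did not pair libraries (median correlation 0.022 over 36 same-numbered pairs). The replicate block gave 3 nuclear calls with the sexes averaged, 1 lower in males, 15 between APP sexes and 15 between WT sexes.

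Leaving out 1 library at a time, nuclear calls ranged from 1 to 3 higher and 0 to 1 lower with the sexes averaged, 0 to 2 lower in males, 0 to 17 between APP sexes, 4 to 13 between WT sexes, 0 to 1 for the interaction and 0 to 2 by library name. Mitochondrial calls ranged from 0 to 1 in females, 0 to 3 for the interaction and 0 to 7 between APP sexes. The log2 ratio of mitochondrial to nuclear reads differed between genotypes by -0.31 to -0.07 in males (-0.22 with all), 0.45 to 0.57 in females (0.50) and 0.10 to 0.22 with the sexes averaged (0.14). The Cox7a2l call in males held in 25 of 27 settings, and in the others adjusted p was 0.141 and 0.161.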
